A study of Homo sapiens with 9 samples.

Results

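Mitochondrial ribosomal protein genes were followed in the human cell line CAL-1 after knockdown of KHSRP. They were taken as the symbols that start with MRPL or MRPS, followed by a number and at most 1 letter from A to C. The rule found 78 members among 25540 symbols, 49 named for the large subunit and 29 for the small subunit. CAL-1 is an established cell line of BPDCN (blastic plasmacytoid dendritic cell neoplasm), an aggressive blood cancer. KHSRP is an RNA-binding protein with KH domains, best known for speeding up the decay of AU-rich messengers. CRISPR interference, in which an inactive Cas9 represses a gene at its start site, was used to lower it. The 9 RNA sequencing libraries comprised 3 labelled KHSRPi#1 and 3 labelled KHSRPi#2, both with the genotype KHSRP knockdown, and 3 labelled NTC with the genotype WT. What #1 and #2 stand for is not stated in the labels, which give all libraries the same batch and do not say that replicates came from separate cultures. The p-values thus reflect no more than the spread among the 9 libraries, and that spread may be technical.

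The mitochondrial ribosome translates the few mRNAs of the mitochondrial genome, which encode core subunits of the respiratory chain. Its RNAs come from the mitochondrial genome, but all of its proteins are encoded in the nucleus, made in the cytosol and imported. The small subunit reads the mRNA and the large subunit joins the amino acids, as in bacteria, but much of the bacterial RNA is lost and many proteins have no bacterial counterpart. In leukemia cells mitochondrial translation is known as a process on which respiration depends.

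Symbols do not always give the subunit in which a protein sits. MRPS30 and MRPS18A are known as large subunit proteins, and MRPS36, also called KGD4, is known as a component of the 2-oxoglutarate dehydrogenase complex and not of the ribosome. They are counted here by symbol. MRPL57 (MRP63) and MRPL58 (ICT1, which can release stalled peptides) are members under their present symbols.

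The members lie on 21 chromosomes in GENCODE 29. RefSeq promoters of 300 bases, from 250 bases before to 50 after the start on GRCh38.p14, were matched for 70 of the 78 members and for 8654 of the 10939 genes tested. Both strands were searched for 3 short motifs. CCGGAAG, the core bound by ETS factors such as GABP, was in 29 of the 70 promoters (41.4%), against 21.5% of promoters of tested genes and 10.7% of all 27305 promoters. AAGATGGC, a form of the YY1 site, was in 20 of the 70 (28.6%), against 6.27% of tested genes and 3.03% of all promoters. GCATGCGC, an NRF1 core, was in 6 of the 70 (8.57%), against 6.16% of tested genes and 3.27% of all. At least 1 of the 3 motifs was in 42 member promoters (60.0%) and in 30.3% of those of tested genes, and matches of different motifs did not overlap in any member promoter. A match is a run of letters and was not shown to be bound in these cells.

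Stretches of 5 promoters are shown, of members named in the results that follow and picked after the values were seen. Other members with differences as large are not shown. Each runs from 130 bases before the start to 30 bases after it, 5′ to 3′ on the gene's strand, with matches in capitals; the sequences are from RefSeq.
MRPL51 at chr12:6493233-6493392, minus strand: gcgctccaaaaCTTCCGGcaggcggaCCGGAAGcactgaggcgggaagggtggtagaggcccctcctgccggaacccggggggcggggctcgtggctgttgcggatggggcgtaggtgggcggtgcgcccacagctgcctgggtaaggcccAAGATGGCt
MRPL20 at chr1:1407264-1407423, minus strand: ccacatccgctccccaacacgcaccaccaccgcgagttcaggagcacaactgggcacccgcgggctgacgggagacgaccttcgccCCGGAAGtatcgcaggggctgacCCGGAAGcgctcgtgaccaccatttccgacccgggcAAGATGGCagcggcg
MRPS7 at chr17:75261749-75261908, plus strand: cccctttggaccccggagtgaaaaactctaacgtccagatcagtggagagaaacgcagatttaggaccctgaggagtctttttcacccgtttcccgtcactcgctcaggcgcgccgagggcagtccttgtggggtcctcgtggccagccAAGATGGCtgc
MRPL47 at chr3:179604609-179604768, minus strand: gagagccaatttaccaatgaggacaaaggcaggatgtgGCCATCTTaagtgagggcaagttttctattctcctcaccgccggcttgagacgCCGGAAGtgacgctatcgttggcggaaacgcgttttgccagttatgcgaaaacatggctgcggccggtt
MRPL41 at chr9:137551749-137551908, plus strand: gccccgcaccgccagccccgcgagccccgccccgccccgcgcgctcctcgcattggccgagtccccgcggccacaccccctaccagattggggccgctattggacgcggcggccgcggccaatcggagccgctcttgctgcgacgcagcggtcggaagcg
MRPL51, the most abundant member, has CCGGAAG or its reverse complement 119 and 104 bases before its start and AAGATGGC 21 bases after it. MRPL20 has CCGGAAG 44 and 21 bases before its start and AAGATGGC 15 bases after it. In MRPS7 the only match is AAGATGGC, 19 bases after the start. MRPL47 has both motifs before its start. In MRPL41 none of the 3 strings occurs in the 300 bases.

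Values are TPM, length-scaled transcript abundance, which divide reads by transcript length and scale every library to the same sum of 1000000. They can therefore be compared between genes, but they keep no read totals, so depth in reads is unknown. The first principal component, with 38.3% of the variance, set the 3 libraries of replicate 3 apart from the other 6 in every group. Results are therefore also given with a term for replicate 3 and for replicates 1 and 2 alone. Of 12 markers of plasmacytoid dendritic cells, 10 had a mean of at least 1 TPM, led by IRF8, TCL1A and CD4, while LILRA4 was between 0.522 and 1.25 TPM and IL3RA was listed at 0 in all 9 libraries. Of 13 markers of T cells, B cells, monocytes, red cells and granulocytes, PAX5 was between 2.55 and 3.73 TPM and the other 12 were at most 0.164 TPM. KHSRP itself was at 35.1 ± 0.013 TPM in KHSRPi#1, 35.3 ± 1.49 TPM in KHSRPi#2 and 237 ± 19.1 TPM in NTC (SD, n = 3 each), a log2 fold change of -2.72 for the mean of the knockdown groups.

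All members but 1 were expressed, and most were well above the typical gene. The 77 members with a mean of at least 1 TPM over the 9 libraries ran from 13.0 TPM (MRPS11) to 519 TPM (MRPL51), with a median of 96.1 TPM. The median over all 10939 tested genes was 21.2 TPM, and the median member ranked at the 85.3rd percentile of them. Means of at least 100 TPM were found for 21 of the 49 large subunit members and 12 of the 28 tested small subunit members. Medians of the subunits were 97.3 TPM and 94.3 TPM. Cytosolic ribosomal protein genes had a median of 2514 TPM and nuclear genes of the respiratory chain 209.5 TPM, so the members lay below both. Mitoribosome assembly and rRNA modification factors, at a median of 27.0 TPM, and mitochondrial translation factors, at 41.8 TPM, lay below the members.

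**Figure D1:**
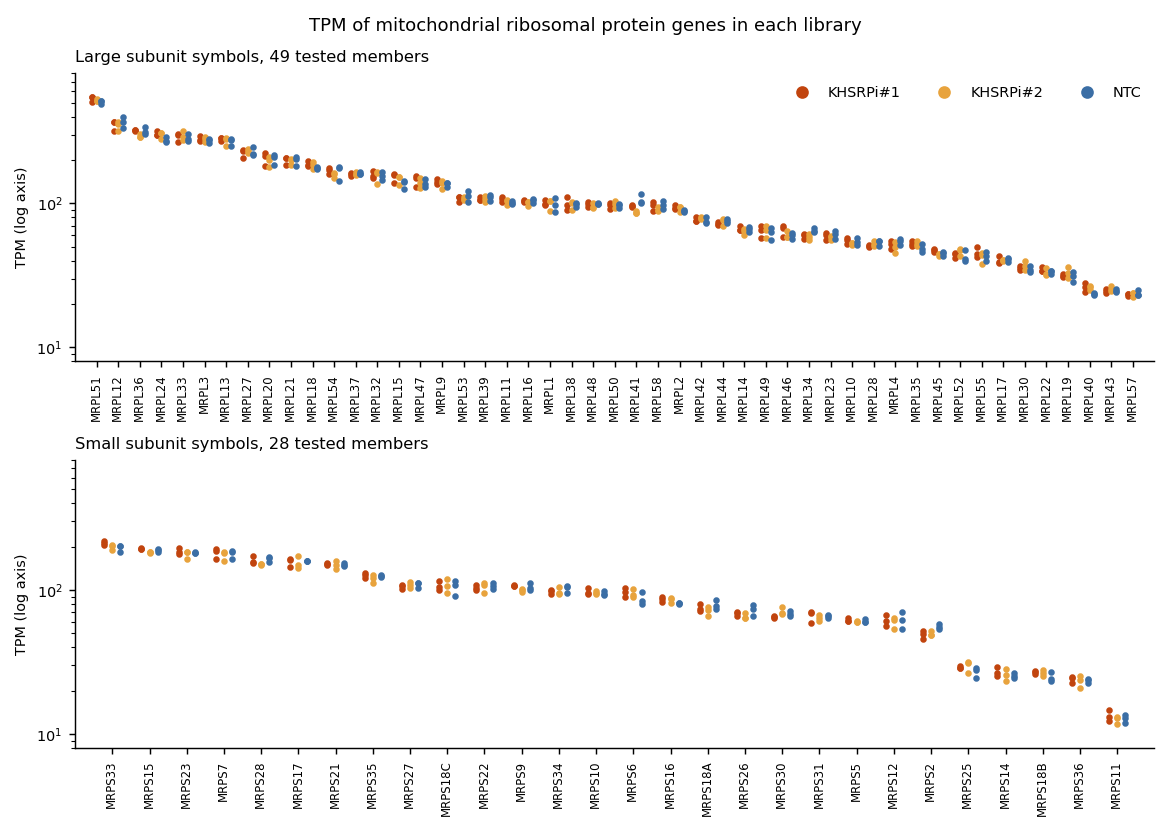
TPM on a log axis of the 77 tested members in each of the 9 libraries, ordered by mean within each subunit; each point is 1 library of KHSRPi#1, KHSRPi#2 or NTC. Members differ far more from one another, between 13.0 and 519 TPM, than libraries differ for 1 member; MRPS24 is not drawn.

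In the large subunit the 5 highest means were those of MRPL51, MRPL12, MRPL36, MRPL24 and MRPL33, at 519, 354, 310.0, 293 and 289 TPM. MRPL12 (bL12m) is the stalk protein that contacts the elongation factors, MRPL24 sits near the exit of the peptide tunnel, and MRPL36 (bL36m) and MRPL33 (bL33m) are small proteins with bacterial homologs. MRPL51 has no bacterial homolog. MRPL51 was at 548, 544 and 506 TPM in KHSRPi#1, at 514, 529 and 516 TPM in KHSRPi#2 and at 514, 511 and 493 TPM in NTC, so the groups overlapped. The lowest large subunit means were 23.4 TPM for MRPL57, 24.98 TPM for MRPL43, 25.2 TPM for MRPL40, 31.9 TPM for MRPL19 and 33.7 TPM for MRPL22. Stalk proteins were not at 1 level: MRPL10, which anchors MRPL12, was at 54.0 TPM and MRPL11, at the base of the stalk, at 103.4 TPM. MRPL45, known for tethering the ribosome to the inner membrane, was at 45.2 TPM.

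In the small subunit MRPS33, MRPS15, MRPS23, MRPS7 and MRPS28 had the highest means, at 202, 188, 181.5, 178 and 159 TPM. MRPS7 (uS7m) is the homolog of a bacterial protein that nucleates the head of the subunit, and that of MRPS15 (uS15m) binds the rRNA early in bacterial assembly; MRPS33 and MRPS23 have no bacterial homolog. The lowest were MRPS11 at 13.0 TPM, MRPS36 at 23.6 TPM, MRPS18B at 26.0 TPM and MRPS14 at 26.1 TPM, apart from MRPS24. The paralogs MRPS18A, MRPS18B and MRPS18C, which derive from 1 bacterial protein and sit at different places, were at 74.98, 26.0 and 106 TPM.

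MRPS24 (uS3m), a conserved protein at the mRNA entry of the small subunit, was listed at 0 in 8 of the 9 libraries and at 0.453 TPM in KHSRPi#1 replicate 1. It is the only member that was not tested. The readthrough gene URGCP-MRPS24, which shares 23.2% of the annotated exonic bases of MRPS24 in GENCODE 29, was listed at 0 in all 9 libraries, while URGCP was between 6.19 and 7.49 TPM. The counting tool and the handling of reads shared by overlapping genes are not known here, so the value of MRPS24 is uncertain. Exonic bases shared with another annotated gene on the same strand were found for 16 of the 78 members. These shares are taken over all annotated exons of a gene, 2613 bases for MRPS24. Its transcript with the longest coding sequence has 707 bases, so the shared part of that transcript is not given. The shares therefore cannot be ranked between members. MRPL12 shares 68.2% with AC139530.2, MRPL53 shares 45.2% with CCDC142, MRPL38 shares 37.5% with AC087289.3 and MRPS28 shares 35.8% with AC036214.3. Their values carry the same uncertainty, and what part the overlap has in the zeros of MRPS24 was not tested.

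Proteins with and without bacterial homologs, sorted by general knowledge of the ribosome after the values were seen, had medians close to each other. Medians in the large subunit were 103.4 TPM for the 29 with a homolog and 86.0 TPM for the 20 without one. In the small subunit they were 92.5 TPM for the 17 tested members with a homolog and 102.5 TPM for the 10 without one. These differences were not tested.

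The median coefficient of variation over the 3 NTC libraries was 4.91% for the members and 7.80% for all tested genes. Over the 6630 tested genes in the same range of TPM it was 6.79%. Their median level was 39.6 TPM, against 96.1 TPM for the tested members, so the sets are not matched in level. Some related sets varied less than the members: cytosolic ribosomal protein genes (3.73%), respiratory chain genes (3.98%) and 6 other genes listed with the mitoribosomal proteins (3.62%). Others varied more: assembly and rRNA modification factors (5.28%), translation factors (6.82%) and mitochondrial aminoacyl-tRNA synthetases (5.77%). So did mitochondrial transcription and RNA processing (7.10%) and regulators of mitochondrial genes (8.32%). None of these sets was matched to the members in level. The steadiest members in NTC were MRPS17, MRPS16 and MRPL48, at 0.0687%, 0.592% and 0.879%, followed by MRPL2 at 0.943%, MRPS23 at 0.973% and MRPL40 at 1.49%. The least steady were MRPS12 at 13.3%, MRPL54 at 11.97% and MRPS18C at 11.9%, followed by MRPL1 at 10.4%, MRPS6 at 10.1% and MRPL52 at 9.91%. With 3 libraries such single values carry a wide error.

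The summed levels of both subunits differed between knockdown and NTC by less than the spread of the libraries. Large subunit symbols summed to 6227 ± 178 TPM in KHSRPi#1, 6086 ± 157 TPM in KHSRPi#2 and 6119 ± 90.4 TPM in NTC (SD, n = 3 each). Small subunit symbols summed to 2739 ± 62.7, 2662 ± 75.7 and 2712 ± 10.4 TPM in KHSRPi#1, KHSRPi#2 and NTC. Together the members took between 0.850% and 0.913% of a library's TPM, and the ratio of large to small sums was between 2.23 and 2.30 in all 9. In bulk RNA, fewer cells of a type and less RNA per cell cannot be told apart.

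**Figure D2:**
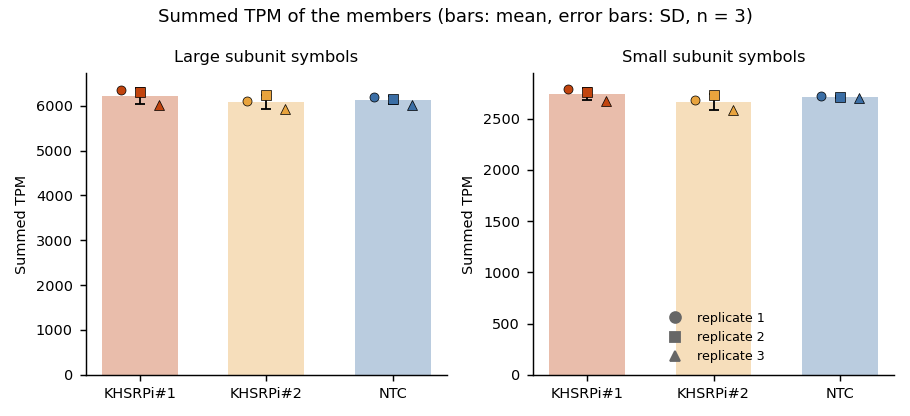
Summed TPM of large subunit symbols (left) and small subunit symbols (right) by group; bars are means, error bars SD (n = 3) and each symbol is 1 library. Group means lie between 6086 and 6227 TPM for the large subunit and between 2662 and 2739 TPM for the small one, and the lowest library of each group is replicate 3.

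Member by member, no mitochondrial ribosomal protein gene passed the test in the knockdown. Each gene was compared on log2(TPM + 1) with limma in 1 fit of all 9 libraries, with Benjamini-Hochberg adjustment over the 10939 tested genes and a threshold of 0.05. Fold changes on this scale understate the change of genes with low TPM, which matters little at the levels of the members. For the mean of the knockdown groups minus NTC, 0 of 77 members were called, and the share of all tested genes called was 0.0823%. An unadjusted p under 0.05 was found for 5 members, 2 higher and 3 lower, and 7.93% of all tested genes had one. No member was called in KHSRPi#1 or in KHSRPi#2 alone, where 0.0548% of tested genes were called in each. An unadjusted p under 0.05 was reached by 5 members in KHSRPi#1, against 5.24% of tested genes, and by 5 in KHSRPi#2, against 6.93%. The 2 smallest p of each subunit were those of MRPL24 and MRPL40 and of MRPS2 and MRPS33 in KHSRPi#1, and those of MRPL41 and MRPL34 and of MRPS2 and MRPS28 in KHSRPi#2. MRPS33 was at 219, 206 and 212 TPM in KHSRPi#1 and 184, 203 and 201 TPM in NTC, without overlap, and MRPS28 at 149.8, 152 and 153 TPM in KHSRPi#2 and 157, 169 and 167 TPM in NTC. Both comparisons share the NTC libraries.

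Log2 fold changes of the members were small in both directions. They were positive for 40 and negative for 37 of the 77, with a median of 0.0018, against 0.018 for all tested genes. Large subunit members had a median of 0.017, or -0.0018 after median-ratio rescaling. Small subunit members had a median of -0.0099, or 0.0094 in replicates 1 and 2 alone. The extremes were -0.21 and 0.15. The 95% interval of every one of the 77 members lay within a 1.25-fold change in either direction (0.32 on the log2 scale). The bound furthest from 0 had an absolute value of 0.319, next to the limit of 0.322. Of the 10939 tested genes, 8314 (76.0%) lay within the limit, a share not matched to the members in level. In KHSRPi#1 alone 74 of the 77 intervals lay within that limit, and in KHSRPi#2 alone 76, with the interval of MRPL41 reaching beyond it.

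**Figure D3:**
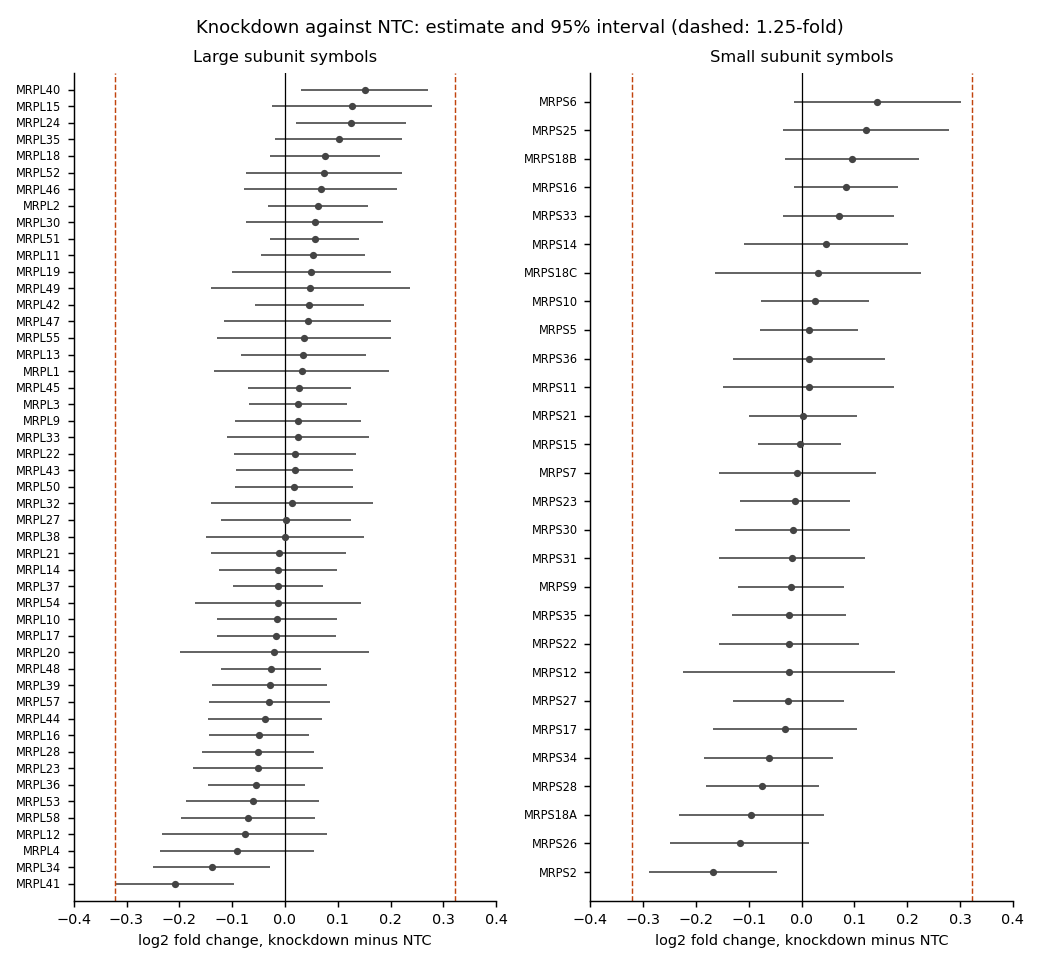
Log2 fold change, mean of the knockdown groups minus NTC, of the 77 tested members by subunit; points are estimates, lines 95% intervals from limma and dashed lines a 1.25-fold change. Every interval lies between the dashed lines; MRPL41 is lowest at -0.21 and MRPL40 highest at 0.15.

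MRPL41 had the smallest p of all members. Its protein (mL41) has no bacterial homolog and has also been studied for an effect on cell growth. MRPL41 was at 96.6, 96.4 and 94.8 TPM in KHSRPi#1, at 88.5, 85.2 and 86.3 TPM in KHSRPi#2 and at 115, 100.3 and 102 TPM in NTC. All 6 knockdown libraries lay below all 3 NTC libraries, and the KHSRPi#2 libraries lay below those of KHSRPi#1. The log2 fold change was -0.21 with a 95% interval of -0.32 to -0.10 and an adjusted p of 0.310 in limma. In KHSRPi#2 alone it was -0.28 with an adjusted p of 0.275.

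With a term for replicate 3, which takes the difference of those libraries out of the residual spread, MRPL41 was called lower. Its adjusted p in limma was then 0.0390 for the mean of the knockdown groups and 0.0270 for KHSRPi#2, while in KHSRPi#1 it was 0.281. It was the only member called, 1 of 77, while 0.485% of tested genes were called lower for the mean and 0.201% for KHSRPi#2. MRPL15 (uL15m), at a log2 fold change of 0.13, came next with an adjusted p of 0.0567. In the same fit 4 of 10 markers of plasmacytoid dendritic cells were called higher in the knockdown, as were 1.27% of all tested genes. Among them GZMB, a protease of these cells, was at 83.5 ± 21.6 TPM in knockdown cells (n = 6) and 41.2 ± 10.6 TPM in NTC (n = 3). The part of these markers in the MRPL41 value was not tested. The call rests on single libraries: with the term kept, it was lost for the mean on leaving out any library other than NTC replicate 2. For KHSRPi#2 it was kept without KHSRPi#1 replicate 2, NTC replicate 1 or NTC replicate 2 and lost without any other.

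MRPS2 (uS2m), a protein between the head and body of the small subunit, was at 49.6, 51.6 and 45.4 TPM in KHSRPi#1, at 52.0, 49.0 and 48.7 TPM in KHSRPi#2 and at 58.3, 55.1 and 53.3 TPM in NTC. No knockdown library reached the lowest NTC library. Its log2 fold change was -0.17 (SE 0.055), with an adjusted p of 0.503 in limma. It was called lower for the mean only with the replicate 3 term and either median-ratio rescaling or quantile normalization together.

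MRPL34 (bL34m), a small basic protein of the large subunit, was at 56.2, 60.8 and 60.3 TPM in KHSRPi#1, at 58.7, 55.8 and 61.7 TPM in KHSRPi#2 and at 67.1, 64.2 and 63.6 TPM in NTC. Again the groups did not overlap. The log2 fold change was -0.14 (SE 0.050), with an adjusted p of 0.532 in limma. MRPS26, with no bacterial homolog, was at 64.0 to 70.3 TPM in the 6 knockdown libraries and 66.5 to 78.9 TPM in NTC, a log2 fold change of -0.12 between groups that overlap.

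On the other side MRPL40, a member without bacterial homolog, was at 26.3, 27.8 and 24.4 TPM in KHSRPi#1, at 26.6, 25.2 and 26.3 TPM in KHSRPi#2 and at 23.4, 23.7 and 23.0 TPM in NTC. Every knockdown library lay above every NTC library. The log2 fold change was 0.15 (SE 0.054), with an adjusted p of 0.533 in limma. MRPS16 (bS16m), a conserved protein of the small subunit body, did not overlap either, at 81.8 to 89.6 TPM in the knockdown libraries and 80.4 to 81.3 TPM in NTC, for a log2 fold change of 0.084.

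MRPL24 was at 297, 298 and 319 TPM in KHSRPi#1, at 281, 306 and 307 TPM in KHSRPi#2 and at 273, 266 and 290.4 TPM in NTC. KHSRPi#2 replicate 1 lay below NTC replicate 3, so the groups overlapped. The log2 fold change was 0.12 (SE 0.047), with an adjusted p of 0.550 in limma. MRPS6 (bS6m), on the platform of the small subunit, was at 89.4 to 104 TPM in the knockdown libraries and 79.6 to 96.3 TPM in NTC, with a log2 fold change of 0.14. Of the 77 members, MRPL40 and MRPS16 lay wholly above NTC and MRPL41, MRPL34 and MRPS2 wholly below it. Of all tested genes, 3.1% lay wholly above and 1.57% wholly below.

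**Figure D4:**
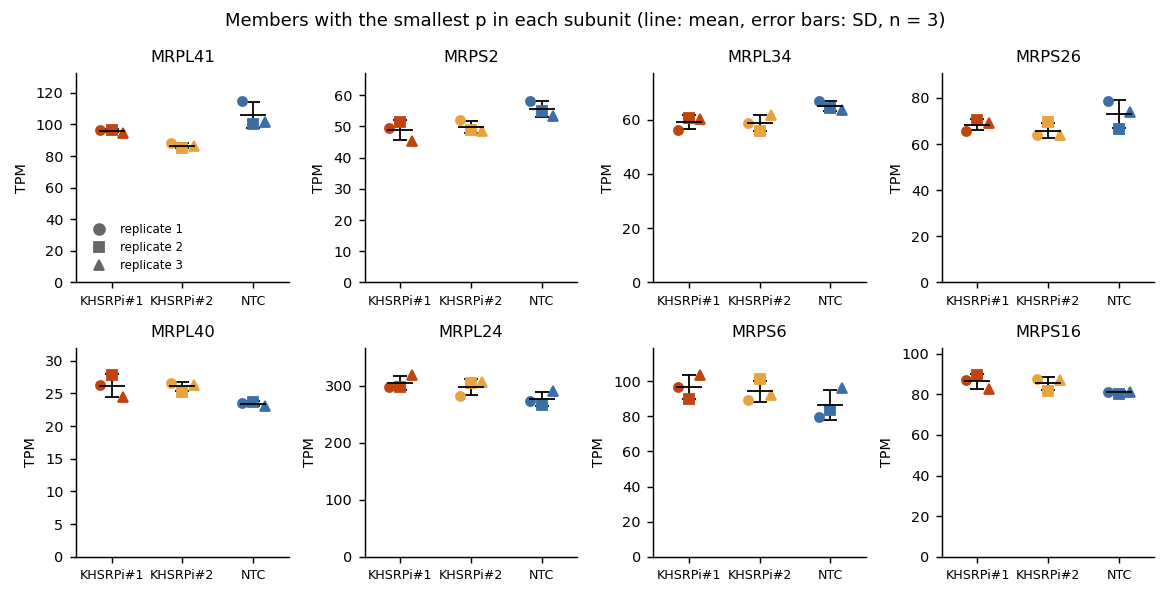
TPM in each library of the 4 members of each subunit with the smallest p for the knockdown; symbols mark the replicate number, lines the group mean and error bars SD (n = 3). The means of MRPL41 are 95.9 TPM in KHSRPi#1, 86.7 TPM in KHSRPi#2 and 106 TPM in NTC, and none of the 8 members passed the test without a term for replicate 3.

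The knockdown groups could be compared with each other directly. In KHSRPi#2 minus KHSRPi#1, 0 of 77 members and 0 of all 10939 genes were called by limma (0.0%), and at an unadjusted p under 0.05 there were 3 members and 115 genes (1.05%). Differences were negative for 58 of the 77 members, with a median of -0.033, whereas 67.0% of all tested genes were positive, with a median of 0.026. This was not particular to the members: 56 of 75 respiratory chain genes were negative, with a median of -0.032, as were 77 of 85 cytosolic ribosomal protein genes, with a median of -0.036. MRPL36 was at 288, 301 and 288 TPM in KHSRPi#2 and at 323, 322 and 316 TPM in KHSRPi#1, without overlap, and at 305, 311 and 338 TPM in NTC. Its log2 difference between the knockdown groups was -0.13, with an adjusted p above 0.99 in limma, as for every member. MRPS30 differed the other way, at 75.9, 69.1 and 68.4 TPM in KHSRPi#2 and 64.6, 66.1 and 64.2 TPM in KHSRPi#1. Its log2 difference was 0.13. MRPS15 was at 184, 179.8 and 184 TPM in KHSRPi#2 and 193, 193 and 195 TPM in KHSRPi#1. In all, 8 members had every KHSRPi#2 library below every KHSRPi#1 library and 1 had the reverse, against 1.16% and 3.3% of tested genes. All 77 intervals lay within the 1.25-fold limit.

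KHSRP is known for mRNAs with AU-rich elements, so the 3′ UTRs of the members were searched for the string TATTTAT, a core of such elements. In the GENCODE 29 transcript with the longest coding sequence the median 3′ UTR of the 78 members had 316.5 bases, against 961 bases for tested genes, of which 90.2% were matched. TATTTAT was in 8 members (10.3%) and in 30.6% of tested genes. Among genes whose 3′ UTR lay in the members' interquartile range, it was in 1 of 38 members (2.63%) and in 13.3% of 3033 tested genes. The 8 were MRPL17, MRPL19, MRPL33, MRPL35, MRPL50, MRPL57, MRPS10 and MRPS33. Their log2 fold changes in the knockdown lay between -0.029 and 0.10 with a median of 0.025, against 0.028 for the 3022 tested genes with the string, and 0 of the 8 were called.

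Other genes of mitochondrial translation also gave no call in the knockdown without a term for replicate 3. For the mean of the knockdown groups 0.0823% of all tested genes were called in that fit, so counts of 0 are not particular to these lists. Of 6 further genes listed with the mitoribosomal proteins under other names, OXA1L among them, none was called. DAP3 (mS29), a GTP-binding protein of the small subunit, was at 261 ± 13.3 TPM in knockdown cells (n = 6) and 248 ± 9.65 TPM in NTC (n = 3). GADD45GIP1 (mL64) had a log2 fold change of -0.12 and OXA1L, the insertase of the inner membrane, of -0.061. In the translation factors, 0 of 12, the smallest p was that of GUF1, a GTPase related to bacterial LepA, at 41.1 ± 2.00 TPM in knockdown cells and 47.2 ± 3.25 TPM in NTC, a log2 fold change of -0.19 with an adjusted p of 0.394 in limma. MTIF2, an initiation factor, had a log2 fold change of 0.12 and TUFM, the most abundant elongation factor listed, of -0.050. Mitochondrial aminoacyl-tRNA synthetases gave 0 of 19. On the log2 scale HARS2, the histidyl enzyme, differed by 0.16 and KARS, the lysyl enzyme, by 0.077. Assembly and rRNA modification factors gave 0 of 27, and factors of mitochondrial transcription and RNA processing 0 of 14. Of the first, the RNA helicase DHX30 differed by -0.11 and the rRNA methyltransferase NSUN4 by 0.092, and of the second KIAA0391, a subunit of mitochondrial RNase P, by 0.077 and MTERF1 by 0.066. The most abundant genes, C1QBP of the first and SLIRP of the second, differed by -0.020 and 0.054.

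Regulators known for mitochondrial genes (NRF1, GABPA and others) gave 0 of 9, again beside 0.0823% of all tested genes. Log2 fold changes were 0.15 for GABPB2 and 0.12 for GABPB1, partners of GABPA, and -0.0053 for MYC, the most abundant. Without the term for replicate 3 none of 75 respiratory chain genes was called. ATP5G1, which encodes subunit c of ATP synthase, came closest, with an adjusted p of 0.0700 in limma. It was at 564 ± 21.4 TPM in knockdown cells and 471 ± 11.8 TPM in NTC. SDHC, next by p, had a log2 fold change of 0.15 and COX7C, the most abundant, of -0.0070. With the term 1 of the 75 was called higher for the mean of the knockdown groups, as were 1.27% of all tested genes. Cytosolic ribosomal protein genes gave 0 of 85, with a median log2 fold change of -0.024. RPS2 and RPS15 had -0.10 each and RPS12, the most abundant, had 0.033. Markers of plasmacytoid dendritic cells summed to between 3858 and 4394 TPM in knockdown libraries and between 3730 and 4235 TPM in NTC, and other cell markers to between 2.59 and 4.00 TPM and between 2.76 and 3.60 TPM. Their part in the values of the members was not tested.

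Replicate 3 differed from replicates 1 and 2 in many members, mostly downwards. This comparison was chosen knowing that the same values set replicate 3 apart, so its p-values do not have their nominal meaning. In the fit with the term, 25 of 77 members were called, 22 lower and 3 higher, while 30.3% of all tested genes were called, 11.6% lower and 18.7% higher. Called lower were 14 of 49 large subunit members and 8 of 28 small subunit members. The median log2 difference was -0.038 for the members and 0.028 for all tested genes. In every group replicate 3 was below both other replicates for 28 of the 77 members (36.4%), against 16.6% of all tested genes. Median-ratio rescaling gave 27 members lower and 0 higher, so the 3 higher ones were not called then. Over all genes 3748 were called in that fit, both directions together. Leaving out KHSRPi#1 replicate 3, KHSRPi#2 replicate 3 or NTC replicate 3 left 14, 11 and 11 members called. Over all genes, 1799 to 3322 were called on leaving out each of the 9 libraries in turn, against 3314 with none left out. Summed TPM of large subunit symbols was 5987.5 ± 55.8 in replicate 3 (n = 3) and 6222 ± 94.6 in replicates 1 and 2 (n = 6), without overlap, and of small subunit symbols 2649 ± 62.0 and 2732 ± 38.4, with overlap. What set replicate 3 apart is not given in the labels.

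MRPS12 (uS12m), a protein of the decoding centre, was at 56.3, 53.5 and 53.5 TPM in replicate 3 of KHSRPi#1, KHSRPi#2 and NTC. Its level in replicates 1 and 2 was 60.5 and 66.6 TPM in KHSRPi#1, 64.3 and 62.3 TPM in KHSRPi#2 and 69.9 and 62.0 TPM in NTC. Replicate 3 was the lowest in each group, and the 3 libraries lay below all 6 others. The log2 difference was -0.23, with an adjusted p of 0.0040 in limma.

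MRPL20 (bL20m), whose bacterial homolog binds the large rRNA early in assembly and whose promoter is shown above, was at 183, 177 and 184 TPM in replicate 3 of KHSRPi#1, KHSRPi#2 and NTC. In replicates 1 and 2 it lay between 201 and 224 TPM, without overlap. The log2 difference was -0.23, with an adjusted p of 4.4e-04 in limma. MRPL49 and MRPS18C followed at -0.23 and -0.22, MRPL12 and MRPL15 at -0.19 each, and MRPS7 at -0.18. MRPL12 was at 324 ± 10.6 TPM in replicate 3 (n = 3) and 370 ± 15.1 TPM in replicates 1 and 2 (n = 6), and MRPS7 at 163 ± 3.87 and 185 ± 4.12 TPM. Of the 22 members called lower, 15 had all 3 replicate 3 libraries below all 6 others. Of all 77 members 16 did, against 1202 of the 10939 tested genes.

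Against the trend MRPS14 (uS14m), MRPL33 and MRPL24 were higher in replicate 3. MRPS14 was at 29.3, 28.2 and 26.6 TPM in replicate 3 of KHSRPi#1, KHSRPi#2 and NTC and between 23.5 and 26.4 TPM in replicates 1 and 2, a log2 difference of 0.16 with an adjusted p of 0.023 in limma. The call of MRPS14 was lost under both rescalings and on leaving out KHSRPi#1 replicate 2 or any replicate 3 library. MRPL33 differed by 0.14 and MRPL24 by 0.092 on the log2 scale, the second with an adjusted p of 0.0498, next to the threshold.

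**Figure D5:**
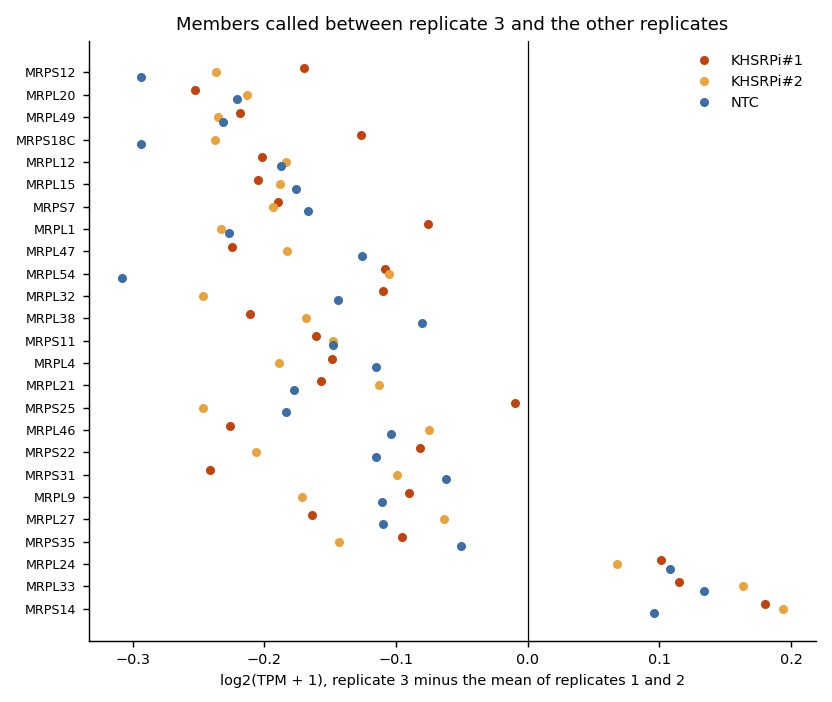
Difference in log2(TPM + 1) between replicate 3 and the mean of replicates 1 and 2 within each group, for the 25 members called; each point is 1 group. The 22 members called lower lie left of 0 in all 3 groups and MRPL24, MRPL33 and MRPS14 lie right of 0.

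Counts for related genes are to be read against the same shares of all tested genes, 18.7% higher and 11.6% lower. Respiratory chain genes had 13 higher and 3 lower of 75, the first near its background, with a median log2 difference of 0.036. Cytosolic ribosomal protein genes had 6 higher and 7 lower of 85. Mitochondrial transcription and RNA processing had 6 lower and 0 higher of 14, among them HSD17B10, a component of mitochondrial RNase P, at -0.18, and assembly factors had 5 higher and 4 lower of 27, near the background in both directions. Markers of plasmacytoid dendritic cells summed to between 4235 and 4394 TPM in replicate 3 and between 3730 and 4250 TPM in replicates 1 and 2, with 2 of 10 called higher and 6 lower. Their part in the result was not tested.

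A start site of a protein-coding neighbour on the other strand, within 1000 bases upstream, was found for 17 of the 78 members (21.8%) and for 10.9% of 9870 tested protein-coding genes in GENCODE 29. MRPL46 and MRPS11 start 34 bases apart and are both members. MRPL46 was at 61.5 TPM and MRPS11 at 13.0 TPM, and both were called lower in replicate 3, at -0.14 and -0.15. MRPL36 and NDUFS6, and MRPL47 and NDUFB5, pair a member with a gene of respiratory complex I, 34 and 36 bases apart. MRPL47, whose promoter is shown above, was called lower in replicate 3 at -0.18 with an adjusted p of 0.0058 in limma, and NDUFB5 higher at 0.12 with an adjusted p of 0.013. MRPL27 and EME1, a subunit of a DNA endonuclease, start 6 bases apart and also differed in direction, at -0.11 and 0.25. Pairs were picked after the values were seen, and others had the same direction. MRPL18 and TCP1, 63 bases apart, were at -0.079 and -0.15, of which only TCP1 was called. In the knockdown neither gene of these pairs was called.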

How the data were processed

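RNA sequencing of CAL-1 was analysed in 9 libraries, 3 each of KHSRPi#1, KHSRPi#2 and NTC, grouped by sample title. The values were deposited by the authors as TPM in a single table by symbol. Per the submitters' processing notes the genome was hg38; the authors' name for the deposited table gives STAR, an aligner, without a version or settings. The counting step, annotation and strand setting are not given. Read totals cannot be had from TPM, which bars count models, so precision rests on the replicates. For genes averaging 1 TPM or more, log2(TPM + 1) was tested in limma 3.58.1 under R 4.3.3. One model held all groups and no covariate; its variances were moderated by eBayes with a trend on mean level. P-values are two-sided and Benjamini-Hochberg adjusted across all tested genes. The procedure was tested on simulated data. The members and gene lists were chosen with earlier results of these data known, and no list was tested as a set. Older symbols were matched through RefSeq synonyms.

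Members named with values were, in each subunit, the 5 highest and lowest by mean TPM and those with the largest and smallest variation in NTC. The MRPS18 paralogs were named too. For the knockdown mean they were the 4 with the smallest p and all whose groups do not overlap. In the other contrasts they were the 2 with the smallest p. For replicate 3 they were the 4 with the largest difference among those called. Cell markers were named only in part, as were genes of the other lists for replicate 3. For the knockdown mean without the term, the 2 with the smallest p and the most abundant were named from each other list. A gene of these lists is not reported here. Others were named after their values were seen, as were the split by bacterial homologs, the motifs and the neighbouring genes. Positions and 3′ UTRs are from GENCODE 29. As alternatives, the pseudocount was set to 0.1 and to 5, the filter was dropped or raised to 5 TPM, and further fits used 2 rescalings, a replicate block, a term for replicate 3, replicates 1 and 2 alone, robust eBayes and leaving out each library. Fits that combine the term with another alternative were added after seeing the data.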

Additional observations from a re-analysis of the deposited data

How the results depend on the processing

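Without a term for replicate 3, 0 members were called for the mean of the knockdown groups, for KHSRPi#1, for KHSRPi#2 and between the knockdown groups under both pseudocounts, both filters, both rescalings, robust eBayes, replicates 1 and 2 alone and leaving out each library. Calls over all genes for the mean then ran from 3 to 14, against 9. The term for replicate 3 and the replicate block each gave 1 member, MRPL41, for the mean and 1 for KHSRPi#2. Genes called were 192 and 152 for the mean and 88 and 91 for KHSRPi#2. The replicate numbers were not taken to pair the libraries. To check this, each gene's deviations from its group mean were correlated between libraries, not the levels themselves. These deviations of same-numbered libraries correlated between 0.040 and 0.324 for replicates 1 and 2 and by at least 0.622 for replicate 3. Among libraries of other groups, 4 of 9 libraries correlated best with their own number. With the term, leaving out each library gave 0 to 1 members for the mean, with 34 to 202 genes called. For KHSRPi#2 it gave 0 to 1, with 27 to 138 genes called. Both rescalings with the term gave 2 members for the mean (MRPL41 and MRPS2). Genes called were then 248 under median-ratio rescaling and 260 under quantile normalization. Members called between replicate 3 and the other replicates numbered 11 to 23 on leaving out each library, with 1799 to 3322 genes called, fewest where a replicate 3 library was left out, which removes 1 of 3. MRPS14 was called there in 7 of 13 alternatives, rescalings and pseudocounts included. Median-ratio rescaling moved the mean sum of small subunit symbols in NTC to 2737 TPM. Median log2 fold changes of the subunits moved by less than the spread between libraries under every alternative run, although that of the large subunit for the mean crossed 0 under both rescalings and that of the small subunit in replicates 1 and 2 alone, and none of the differences of single members that were recomputed reversed direction. Those of MRPL33, MRPL24, MRPL46, MRPS11, MRPL47 and MRPL27 in replicate 3 and of the 8 members with TATTTAT in the knockdown were not recomputed. Depth in reads is unknown, so counting error cannot be stated.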
